A study of Mus musculus with 8 samples.

Results

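The gene set described here holds 10 genes of the epithelial-mesenchymal transition (EMT), found by symbol in the 8 count files among 39179 genes. It is made up of 7 genes for transcription factors (Zeb1, Zeb2, Snai1, Snai2, Twist1, Twist2 and Prrx1) and 3 markers of the mesenchymal state (Vim, Cdh2 and Fn1). RNA sequencing was done on mouse pancreatic ductal adenocarcinoma (PDAC) cells of 4 lines. Each line was sequenced once with overexpression of WT-USP21 and once with ED-USP21, which gave 4 libraries of each construct. USP21 is a deubiquitinating enzyme, and the labels do not spell out ED. All 8 libraries share the alleles ROSA_rtTA, a doxycycline-controlled activator, and p48-Cre, a Cre recombinase under a pancreatic promoter. Lines 1 and 2 are labelled FVB/C57Bl6 and lines 3 and 4 C57BL/6. Whether doxycycline was present is not stated in these sources, and libraries with neither construct were not analysed here. The labels do not say whether a line is a clone.

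EMT is the programme by which epithelial cells lose cell-to-cell junctions and gain a migratory, mesenchymal form. The Zeb, Snail and Twist factors are known to drive it, the first 2 families by binding E-boxes in the promoters of epithelial genes such as the E-cadherin gene Cdh1 and repressing them. Vimentin, an intermediate filament, N-cadherin, an adhesion protein, and fibronectin, a matrix protein, are the usual readouts, and PDAC cell lines are known to range from epithelial to mesenchymal states.

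Gene counts ran from 72828184 to 107551210 per library. Usp21 itself was lower with WT-USP21 than with ED-USP21 in each line, at 147, 948, 538 and 939 CPM (a gene's reads scaled to the library's total) against 1660, 3098, 1670 and 2720 CPM in lines 1 to 4. The level with ED-USP21 was 11.3 times that with WT-USP21 in line 1 and 3.27, 3.11 and 2.90 times in lines 2, 3 and 4. Each construct difference below thus goes with a difference in the level of Usp21, whose part was not tested. Markers of the labelled cell type were high, with 8 ductal genes summing to 7671 to 13377 CPM with WT-USP21 and 8052 to 11211 CPM with ED-USP21. The 9 fibroblast markers summed to 6.93 to 18.2 CPM and 4.83 to 8.40 CPM. Of these markers, Dcn had 0 reads in each library and Pdgfra had 3.36 to 5.81 CPM. Line 1 stood apart: its WT-USP21 library differed at least 2-fold from those of the other lines in 3458 to 3924 genes. That number was 716 genes between lines 2 and 4, 1383 between lines 2 and 3 and 1469 between lines 3 and 4. Lines 2 and 4, whose strain labels differ, lay closest together.

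Of the 10 genes, 6 matched the RefSeq promoter table (GRCm38.p6, 250 bases before to 50 after a start site). The windows shown here are those of Twist1 and Twist2, the 2 genes that differed most between the lines, of Snai1, and of 2 epithelial genes described below, Elf3 and Ocln. Capitals mark CAGGTG on either strand, the E-box letters that Snail and Zeb factors are known to bind.
Twist1, chr12:33957421-33957720, plus strand: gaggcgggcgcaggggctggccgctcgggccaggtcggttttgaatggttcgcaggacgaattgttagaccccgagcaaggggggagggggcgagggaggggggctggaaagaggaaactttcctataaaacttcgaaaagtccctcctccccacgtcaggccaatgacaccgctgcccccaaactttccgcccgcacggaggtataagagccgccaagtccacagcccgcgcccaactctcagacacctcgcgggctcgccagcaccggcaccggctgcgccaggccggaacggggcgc
Twist2, chr1:91801211-91801510, plus strand: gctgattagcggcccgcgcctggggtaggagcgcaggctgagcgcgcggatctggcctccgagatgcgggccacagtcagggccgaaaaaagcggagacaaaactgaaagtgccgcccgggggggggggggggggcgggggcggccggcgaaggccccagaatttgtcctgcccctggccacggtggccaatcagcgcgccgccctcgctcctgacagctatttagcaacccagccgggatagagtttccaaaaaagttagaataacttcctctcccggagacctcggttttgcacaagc
Snai1, chr2:167537945-167538244, plus strand: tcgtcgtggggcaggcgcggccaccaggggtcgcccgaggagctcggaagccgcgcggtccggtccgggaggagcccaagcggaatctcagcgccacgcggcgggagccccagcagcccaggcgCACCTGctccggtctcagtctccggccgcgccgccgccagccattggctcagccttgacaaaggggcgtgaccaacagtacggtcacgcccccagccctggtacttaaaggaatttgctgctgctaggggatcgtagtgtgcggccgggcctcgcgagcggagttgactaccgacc
Elf3, chr1:135258423-135258722, minus strand: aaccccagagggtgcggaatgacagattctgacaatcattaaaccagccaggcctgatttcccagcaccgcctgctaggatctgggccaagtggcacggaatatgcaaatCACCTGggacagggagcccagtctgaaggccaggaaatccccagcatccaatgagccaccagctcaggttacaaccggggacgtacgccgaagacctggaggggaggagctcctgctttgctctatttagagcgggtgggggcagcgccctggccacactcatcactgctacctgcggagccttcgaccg
Ocln, chr13:100552449-100552748, minus strand: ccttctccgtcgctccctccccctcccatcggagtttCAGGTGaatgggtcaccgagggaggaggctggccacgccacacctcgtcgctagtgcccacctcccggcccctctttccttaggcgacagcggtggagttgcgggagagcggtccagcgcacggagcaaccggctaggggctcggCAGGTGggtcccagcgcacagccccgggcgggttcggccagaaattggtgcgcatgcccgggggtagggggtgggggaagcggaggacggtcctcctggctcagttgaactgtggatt
The letters were found in the window of 1 of the 6 matched genes of the set, Snai1. They were found in 12 of the 18 genes with a window out of 27 epithelial regulators, junction genes and keratins. Elf3 and Ocln are among those 12, and Ocln has another window, not shown, with 1 match. Klf4 and Cgn, both called lower in lines 2 to 4 below, each have a window without the letters. At least 1 window held them for 22.6% of all genes with a window, and they were in 20.2% of the 32851 windows. A match is a description of the letters and not evidence of binding.

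Levels were compared between genes as CPM per kilobase of merged exon (GENCODE M21 gene models, not those used for the counting). Vim was the most abundant at 620 ± 78.8 (SD over 8 libraries), followed by Fn1 at 32.3 ± 21.7, Cdh2 at 14.8 ± 4.61 and Zeb1 at 7.95 ± 0.818. Twist1 (5.69 ± 3.92), Snai2 (4.02 ± 2.27) and Zeb2 (1.01 ± 0.413) came next, then Twist2 (0.620 ± 1.09), Snai1 (0.0988 ± 0.0832) and Prrx1 (0.0987 ± 0.128). The ranges of neighbours in this order overlapped over the 8 libraries, except for Vim against Fn1 and Snai2 against Zeb2. The order differed between the lines: in line 1 Snai2 (7.65) stood above Zeb1 (7.34), Twist2 (2.31) above Zeb2 (1.41) and Twist1 at 0, whereas lines 2 to 4 averaged 7.58 for Twist1, 2.80 for Snai2 and 0.0565 for Twist2. All 10 genes passed the filter on low counts, but Snai1, with 2 to 39 reads per library, lay near its edge.

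**Figure D1:**
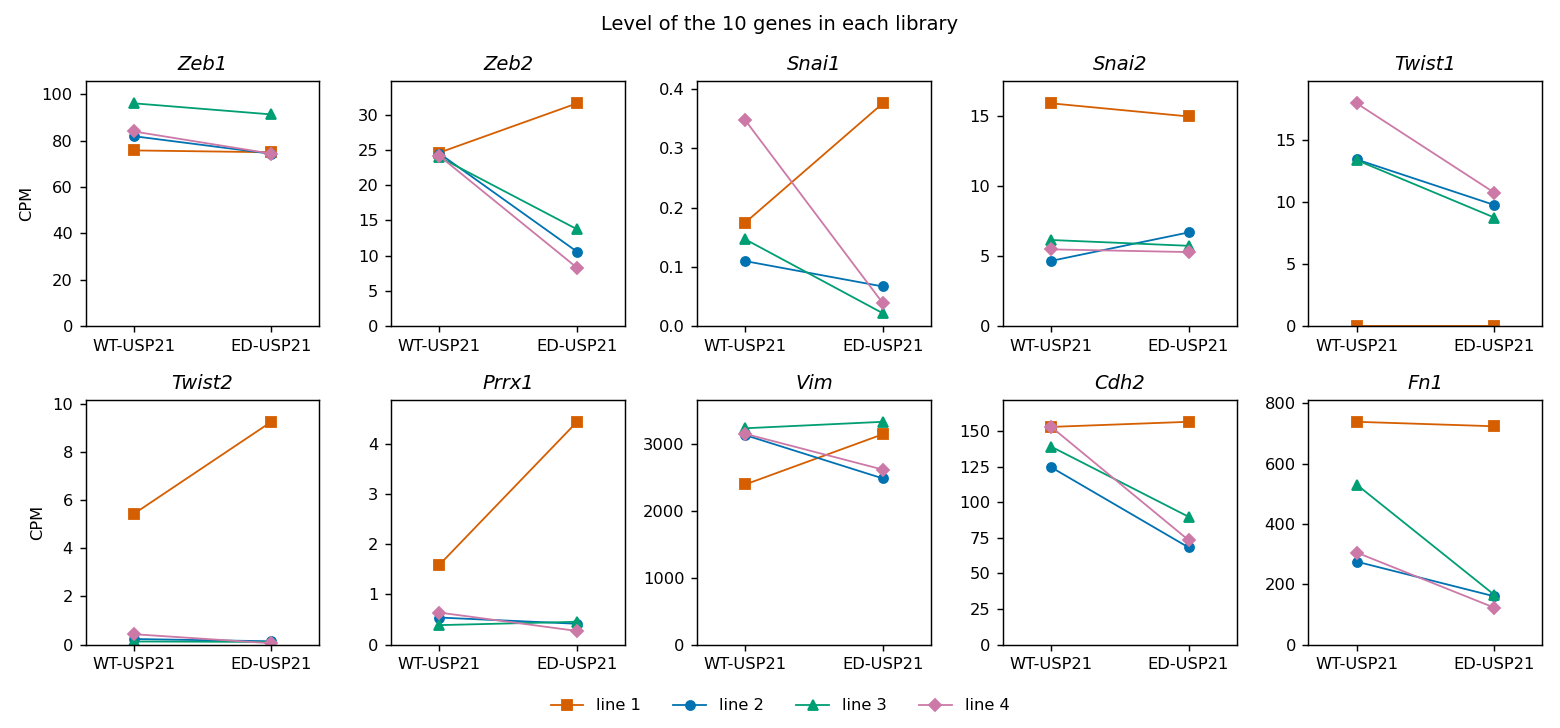
Level of each of the 10 genes in CPM (linear axis from 0, 1 panel per gene), with WT-USP21 left and ED-USP21 right; each line joins the 2 libraries of 1 cell line, so a point is 1 library. Twist1 is at 0 in both libraries of line 1, where Twist2 stands at 5.42 and 9.25 CPM, and Zeb2, Cdh2 and Fn1 are higher with WT-USP21 in lines 2, 3 and 4.

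The comparison of the constructs asks which transcripts differ with WT-USP21 relative to ED-USP21 in the same line. Over lines 1 to 4, with the line as a block, edgeR called 0 of the 10 genes at an adjusted p under 0.05, where it called 0.0247% of the 16192 genes tested. At an unadjusted p under 0.05 it had 4 of the 10 (Zeb2, Twist1, Cdh2 and Fn1) and 1341 of all genes. The median log2 difference of the set (WT-USP21 minus ED-USP21) was 0.56, beside -0.0044 for all genes tested. DESeq2 with the same block called 3 of them (Twist1, Cdh2 and Fn1), beside 2.51% of all genes, and edgeR without the block called 0 of the 10. The smallest edgeR p-values were those of Twist1 (log2 0.60, SE 0.12, adjusted p = 0.293), Cdh2 (0.63, SE 0.18, adjusted p = 0.401) and Fn1 (0.95, SE 0.27, adjusted p = 0.401). Twist1 had 0 reads in both libraries of line 1. With the block, its values here thus rest on lines 2 to 4, where its log2 difference was 0.61.

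Within lines 2 to 4, 4 of the 10 genes rose with WT-USP21 (Zeb2, Twist1, Cdh2 and Fn1) and 0 fell, where edgeR called 4.57% of 16326 genes, 2.51% higher and 2.06% lower. DESeq2 called 9.2% of the genes in these lines. The WT-USP21 libraries lay above all ED-USP21 libraries for Zeb2, Snai1, Twist1, Cdh2 and Fn1, as for 9.14% of all genes, and below them for 0 of the 10, as for 9.04%. The members' median was 0.73, beside 0.0039 for all genes. Line 1 was set apart with its departure already known, so these p-values describe the 3 lines rather than test a choice made in advance. With 1 line left out the log2 differences stayed at 1.01 to 1.37 for Zeb2, 0.54 to 0.69 for Twist1, 0.76 to 0.96 for Cdh2 and 1.04 to 1.52 for Fn1, while the calls varied: without line 2 edgeR called 11 genes in all and 0 of the 10. Without line 4 it called 305 genes and 3 of the 10, without line 3 it called 1701 and 5, Vim (adjusted p = 0.0266) being the fifth, and without the block 383 and 3.

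Zeb2, which encodes a zinc-finger repressor of epithelial genes, had 24.5, 23.98 and 24.2 CPM with WT-USP21 in lines 2, 3 and 4, against 10.6, 13.7 and 8.27 CPM with ED-USP21. The 2 groups did not overlap, and the WT-USP21 libraries lay within a narrow band while the ED-USP21 libraries were spread. The log2 difference was 1.19 (SE 0.14, edgeR adjusted p = 0.0113), and adjusted p = 0.106 without line 2. In line 1 the order was the other way, at 24.6 CPM with WT-USP21 and 31.6 CPM with ED-USP21. The difference in line 1 minus that in lines 2 to 4 was -1.54 on the log2 scale (SE 0.27, edgeR adjusted p = 0.0279, interaction test, which called Zeb2 and Cdh2 of the set and 6.27% of all genes, 3.08% in this direction). This test sets 1 pair of libraries, from a line set apart with its departure known, against 3 pairs and takes the spread from lines 2 to 4. Without the block it did not pass (adjusted p = 0.0550), nor without line 2 (0.113). An annotated antisense gene, Zeb2os, overlaps Zeb2, and whether reads were counted by strand is not stated. The same limit holds for Zeb1, Twist2, Prrx1, Cdh2 and Fn1, which annotated genes on the other strand overlap too.

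Zeb1, the related factor, was measured with 5564 to 9184 reads per library and differed little. It had 75.8, 81.9, 96.1 and 84.0 CPM with WT-USP21 in lines 1 to 4, against 75.0, 74.3, 91.3 and 74.4 CPM with ED-USP21. WT-USP21 was the higher in 4 of 4 lines, as it was for 9.05% of all genes tested (lower in 4 of 4 for 7.36%), but the groups overlapped because line 3 was high with both constructs. The log2 difference was 0.13 in lines 2 to 4 (SE 0.055, adjusted p = 0.277).

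Twist1, a basic helix-loop-helix factor, had 13.4, 13.4 and 18.0 CPM with WT-USP21 in lines 2, 3 and 4, against 9.76, 8.75 and 10.8 CPM with ED-USP21, without overlap. It rose by a log2 value of 0.61 (SE 0.090, edgeR adjusted p = 0.0213). The adjusted p was 0.0797 without the block, 0.101 without line 2 and 0.0919 without line 4, with log2 differences of 0.62, 0.69 and 0.54. In both libraries of line 1 Twist1 had 0 reads. Its difference between constructs has no value there, and whether it differs from that in lines 2 to 4 could not be tested.

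Its paralogue Twist2 stood the other way. Line 1 held 497 reads of it with WT-USP21 and 959 with ED-USP21, or 5.42 and 9.25 CPM. In lines 2, 3 and 4 it had 23, 12 and 37 reads with WT-USP21 and 10, 10 and 4 reads with ED-USP21. Of the reads on either Twist gene, Twist2 thus took 100% in both line 1 libraries (95% exact binomial lower bounds 99.3% and 99.6%) and between 0.476% and 2.33% in the other 6. The difference between the constructs was not called in lines 2 to 4 (log2 1.27, SE 0.66, adjusted p = 0.399), and line 4 alone was far from 0, at 2.62 against 0.69 in line 2 and 0.18 in line 3. Intervals of this kind cover counting error only.

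Snai1, the first Snail factor, was near the floor. Its reads with WT-USP21 were 16, 11, 14 and 30 in lines 1 to 4, against 39, 5, 2 and 3 with ED-USP21. In lines 2 to 4 each WT-USP21 library held more reads than its partner, and in line 1 the ED-USP21 library held more. The ratio of WT-USP21 to ED-USP21, scaled to library size, was 0.464 in line 1 (95% exact interval 0.242 to 0.850) and 9.01 in line 4 (2.80 to 46.1), whereas the interval of line 2 ran from 0.526 to 6.03. The construct difference in lines 2 to 4 did not pass (log2 2.14, SE 0.70, edgeR adjusted p = 0.168). Nor did that in line 1 minus that in lines 2 to 4 (-3.24, SE 1.14, interaction test, adjusted p = 0.165).

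Snai2, also known as Slug, did not follow Zeb2. It had 4.65, 6.15 and 5.48 CPM with WT-USP21 in lines 2, 3 and 4, against 6.69, 5.74 and 5.29 CPM with ED-USP21. The groups overlapped, and the log2 difference was -0.12 (SE 0.16, adjusted p = 0.783). Prrx1, a homeobox factor of mesenchymal cells, had 54, 37 and 55 reads against 31, 42 and 21 in those lines (log2 0.45, SE 0.40, adjusted p = 0.648). In line 1 the WT-USP21 library held 146 reads and the ED-USP21 library 461, and the scaled ratio was 0.358 (95% exact interval 0.295 to 0.432).

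Cdh2 had 125, 139 and 153 CPM with WT-USP21 in lines 2, 3 and 4, against 68.2, 89.8 and 73.4 CPM with ED-USP21, and the groups did not overlap. It rose by 0.86 (log2, SE 0.086, edgeR adjusted p = 0.00892; 0.0920 without line 2). In line 1 the level was 153 CPM with WT-USP21 and 156 CPM with ED-USP21, which is as high as the highest WT-USP21 library of the other lines. The difference in line 1 minus that in lines 2 to 4 was -0.89 (SE 0.17, adjusted p = 0.0373), and it did not pass without the block (0.1000) or without line 2 (0.131).

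Fn1 had 275, 531 and 305 CPM with WT-USP21 in lines 2, 3 and 4, against 160, 165 and 122 CPM with ED-USP21. The groups did not overlap, and the library of line 3 with WT-USP21 was the highest of the 6. The log2 difference was 1.27 (SE 0.17, edgeR adjusted p = 0.0161; 0.0508 without line 2). In line 1 it had 739 CPM with WT-USP21 and 724 CPM with ED-USP21. The construct difference in line 1 minus that in lines 2 to 4 did not pass (-1.23, SE 0.33, interaction test, adjusted p = 0.0856). It did pass with no filter (0.00231) and without line 3 (0.0375).

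Vim, the most abundant of the set, had 3138, 3240 and 3156 CPM with WT-USP21 in lines 2, 3 and 4, against 2488, 3337 and 2621 CPM with ED-USP21. Line 3 with ED-USP21 was the highest of these 6 libraries, so the groups overlapped, and the log2 difference of 0.19 (SE 0.079) had an edgeR adjusted p of 0.279. In line 1 Vim stood at 2398 CPM with WT-USP21 and 3150 CPM with ED-USP21. The construct difference in line 1 minus that in lines 2 to 4 was -0.58 (SE 0.16, interaction test, adjusted p = 0.0985). It passed with DESeq2 (0.0109), with no filter (0.0255) and without line 3 (0.00987). A rise of Zeb2, Cdh2 and Fn1 in lines 2 to 4 was thus measured beside a change of Vim that did not pass.

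**Figure D2:**
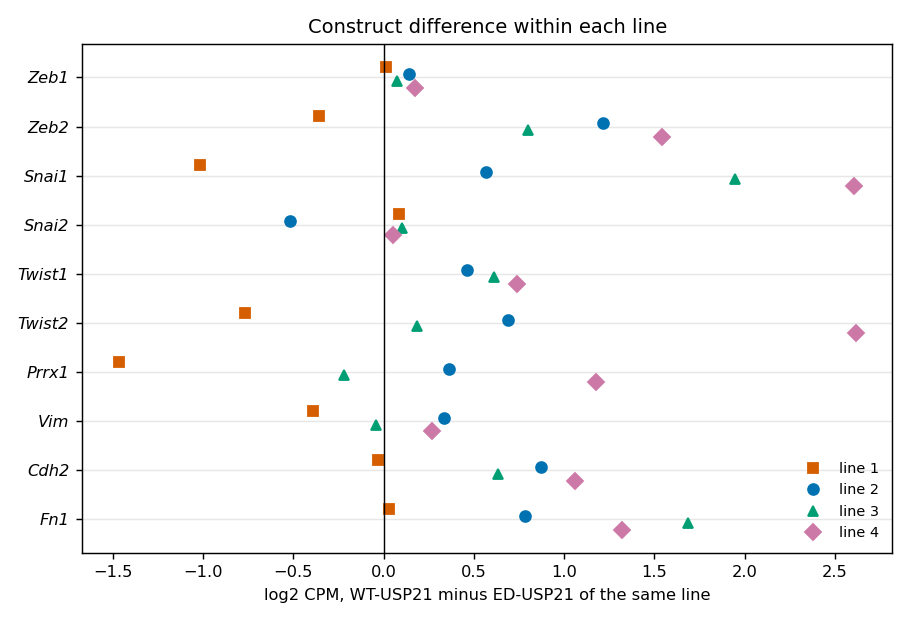
Difference of log2 CPM (prior count 2) between the WT-USP21 and the ED-USP21 library of each line, 1 row per gene and 1 marker per line, with 0 marked; Twist1 has no marker for line 1, where both libraries have 0 reads. Zeb2 runs from 0.80 to 1.54 in lines 2 to 4 and lies at -0.36 in line 1, and Cdh2 and Fn1 lie near 0 in line 1 alone.

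Counted over single lines, 3 of the 9 genes with reads in line 1 lay higher with WT-USP21 there, and 9, 8 and 10 of the 10 genes in lines 2, 3 and 4. The members' median log2 difference was -0.36 in line 1 (Twist1 left out) and 0.51, 0.40 and 1.12 in lines 2, 3 and 4, while that of all genes stayed between -0.030 and 0.026. At least 2-fold higher with WT-USP21 were Zeb2 in lines 2 and 4, Snai1 in lines 3 and 4, Twist2, Prrx1 and Cdh2 in line 4 and Fn1 in lines 3 and 4, where 3.42%, 4.94% and 5.23% of all genes passed that fold in lines 2, 3 and 4. In these lines 0 members were at least 2-fold lower, beside 4.69%, 2.24% and 5.38% of all genes. In line 1 Snai1 and Prrx1 were at least 2-fold lower, a fold passed by 3.27% of genes, and 0 were 2-fold higher, beside 6.07%. With 1 library per construct and line, these differences have no replicate check. Zeb2, Snai1, Twist2 and Cdh2 were lower with WT-USP21 in line 1 and higher in each of lines 2, 3 and 4, a pattern that 10.6% of all genes had.

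The comparison of line 1 with lines 2 to 4 took both libraries of a line as 1 sample. Line 1 thus stood alone and was assumed to vary like the others. A level therefore takes in the construct difference. With WT-USP21, line 1 and lines 2 to 4 were alike for Zeb2 (24.6 against 23.98 to 24.5 CPM). Cdh2 with WT-USP21 had 153 CPM in line 1 against 125 to 153 CPM. With ED-USP21 line 1 was higher, at 31.6 against 8.27 to 13.7 CPM for Zeb2 and 156 against 68.2 to 89.8 CPM for Cdh2. Of the 10 genes, 6 were higher in line 1 (Zeb2, Snai2, Twist2, Prrx1, Cdh2 and Fn1) and Twist1 was lower. This is read against a large background, since edgeR called 35.4% of all genes between these lines (19.7% higher and 15.7% lower in line 1). That count of 5731 genes ran from 3387 to 9784 with 1 of lines 2 to 4 left out, and scaling to library totals alone gave 2671 higher and 2912 lower, where TMM gave 3185 and 2546. The members' median was 0.92 with Twist1 at its bound, beside -0.019 for all genes. Epithelial genes, described below, leaned the same way. The median was 0.36 for 7 epithelial regulators, of which 4 lay above 0. For 15 junction genes and keratins it was 0.29, with 9 above 0.

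Twist1 was below all 6 other libraries in both libraries of line 1, as were 24% of all genes. With 0 reads there, its level in line 1 was at least 456-fold lower than the mean of 14.9 ± 2.63 CPM of lines 2 to 4 with WT-USP21, and at least 337-fold lower than the 9.76 ± 1.003 CPM with ED-USP21 (SD, n = 3 each; floor of 3 counts per library). Of 9780 genes with at least 5 CPM in each of the 6 libraries of lines 2 to 4, 2 had 0 reads in both libraries of line 1: Twist1 and the predicted gene Gm13157, chosen for mention after its values were seen. Twist2 was higher in line 1 by 5.35 on the log2 scale (SE 0.37, edgeR adjusted p = 0.000693), with 5.42 and 9.25 CPM there and 0.0515 to 0.429 CPM in the other 6 libraries.

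Among the other factors, Prrx1 stood at 1.59 and 4.45 CPM in line 1 and at 0.270 to 0.637 CPM in lines 2 to 4 (log2 2.78, SE 0.25, adjusted p = 0.00151). Snai2 stood at 15.9 and 15.0 CPM in line 1 and at 4.65 to 6.69 CPM in the others (log2 1.47, SE 0.12, adjusted p = 0.00121). Both libraries of line 1 lay above all 6 others for these 2 genes, for Twist2, for Zeb2 (log2 0.67, SE 0.11, adjusted p = 0.00888) and for Fn1, 5 of 10 beside 26.1% of all genes. Zeb1 (log2 -0.14, SE 0.12, adjusted p = 0.399), Vim (-0.095, SE 0.10, adjusted p = 0.505) and Snai1 (1.18, SE 0.58, adjusted p = 0.164) did not pass. Cdh2 was higher in line 1 by 0.50 (SE 0.10, adjusted p = 0.0169), although the libraries overlapped, and Fn1 by 1.48 (SE 0.26, adjusted p = 0.0106). Each of these 7 calls held with any 1 of lines 2 to 4 left out.

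**Figure D3:**
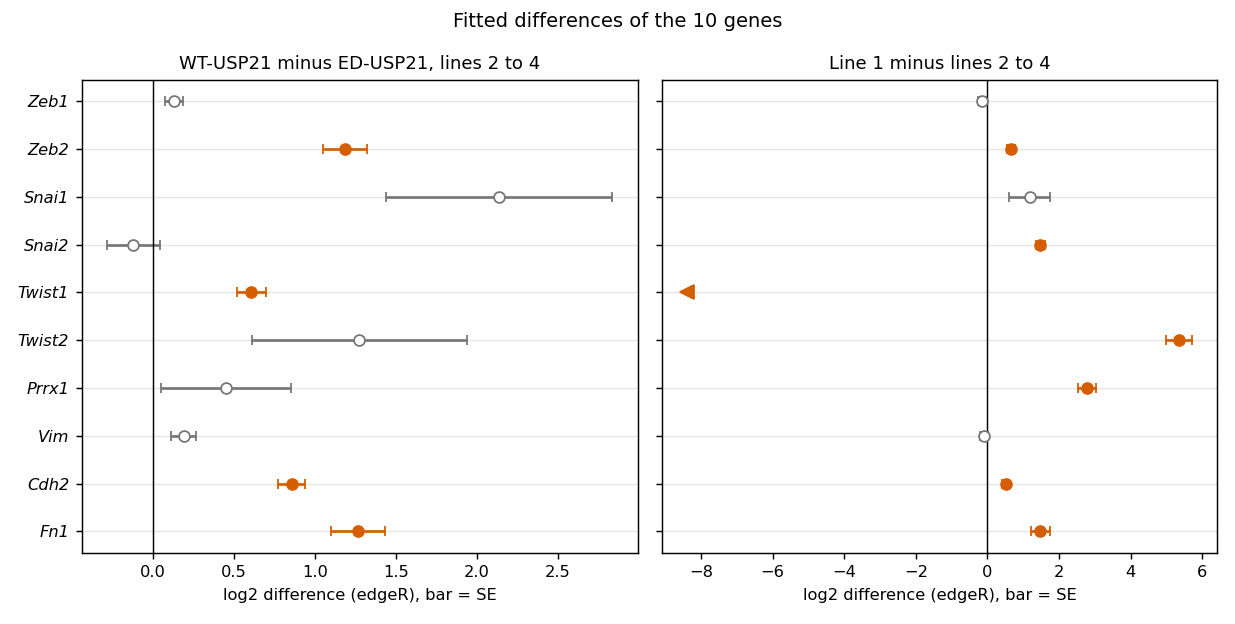
Fitted log2 differences of the 10 genes with their standard errors (bars), WT-USP21 minus ED-USP21 within lines 2 to 4 on the left and line 1 minus lines 2 to 4 on the right; filled orange points have an edgeR adjusted p under 0.05 and open grey points do not. The triangle shows the bound for Twist1, which has 0 reads in line 1, at -8.40; Twist2 lies at 5.35.

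Other genes of the programme were taken from lists chosen with earlier results of these data known, and the 4 with the smallest p in a list were looked at. Among 11 other EMT-promoting factors tested, 2 rose with WT-USP21 in lines 2 to 4 and 0 fell (median log2 0.42), beside 2.51% of all genes called higher and 2.06% lower. Prrx2, the paralogue of Prrx1, had 11.8, 12.2 and 14.7 CPM with WT-USP21 in lines 2, 3 and 4, against 3.13, 5.02 and 3.73 CPM with ED-USP21 (log2 1.72, SE 0.16, edgeR adjusted p = 0.00840). It was higher in line 1 too, at 14.9 CPM with WT-USP21 and 7.63 CPM with ED-USP21. Hmga2, a chromatin protein, rose by 0.70 (SE 0.11, adjusted p = 0.0261). Sox4 (0.45, SE 0.11, adjusted p = 0.0720) and Foxc1 (0.42, SE 0.14, adjusted p = 0.178) did not pass.

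Of 8 tested factors that maintain the epithelial state, 3 fell with WT-USP21 in lines 2 to 4, beside 2.06% of all genes, and 0 rose (median log2 -0.57). The other 5 did not pass, and Ovol1 (0.68, SE 0.66, adjusted p = 0.684) and Klf5 (0.011, SE 0.068, adjusted p = 0.964) lay above 0. Ehf, an ETS factor of epithelial cells, had 28.6, 12.5 and 7.71 CPM with WT-USP21 in lines 2, 3 and 4, against 50.2, 21.9 and 21.2 CPM with ED-USP21 (log2 -1.02, SE 0.14, adjusted p = 0.0163). Klf4, a zinc-finger factor, fell by 0.56 (SE 0.081, adjusted p = 0.0201) and Elf3, another ETS factor, by 0.58 (SE 0.093, adjusted p = 0.0261). In line 1 Ehf had the other order, at 9.69 CPM with WT-USP21 and 1.81 CPM with ED-USP21. The interaction test called these 3 genes with a higher difference in line 1, beside 3.19% of all genes called in that direction. The construct difference in line 1 minus that in lines 2 to 4 was 3.44 for Ehf (SE 0.30, adjusted p = 0.0129). It was 1.47 for Klf4 (SE 0.16, adjusted p = 0.0145) and 1.40 for Elf3 (SE 0.19, adjusted p = 0.0173). Without line 2 the interaction test called 0 genes in all, these 3 included, with 2847 genes at an unadjusted p under 0.05.

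Of 15 junction genes and keratins tested in lines 2 to 4, 1 fell, beside 2.06% of all genes, and 0 rose (median log2 -0.36). It was the tight junction gene Cgn, at 76.3, 62.0 and 78.0 CPM with WT-USP21 against 104, 74.3 and 107 CPM with ED-USP21 (log2 -0.39, SE 0.068, adjusted p = 0.0334). Dsp, for desmoplakin (-0.50, SE 0.10, adjusted p = 0.0547), Cdh1 (-0.49, SE 0.11, adjusted p = 0.0661) and the occludin gene Ocln (-1.13, SE 0.26, adjusted p = 0.0665) did not pass. Cdh1 had 547 CPM with WT-USP21 and 331 CPM with ED-USP21 in line 1, against 303, 372 and 289 CPM with WT-USP21 and 454, 420 and 476 CPM with ED-USP21 in lines 2, 3 and 4. The interaction test called 4 of the 15 with a higher difference in line 1, beside 3.19% of all genes. Without line 2 it called 0 of these 15. For Cdh1 the construct difference in line 1 exceeded that in lines 2 to 4 by 1.22 (SE 0.22, interaction test, adjusted p = 0.0307).

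**Figure D4:**
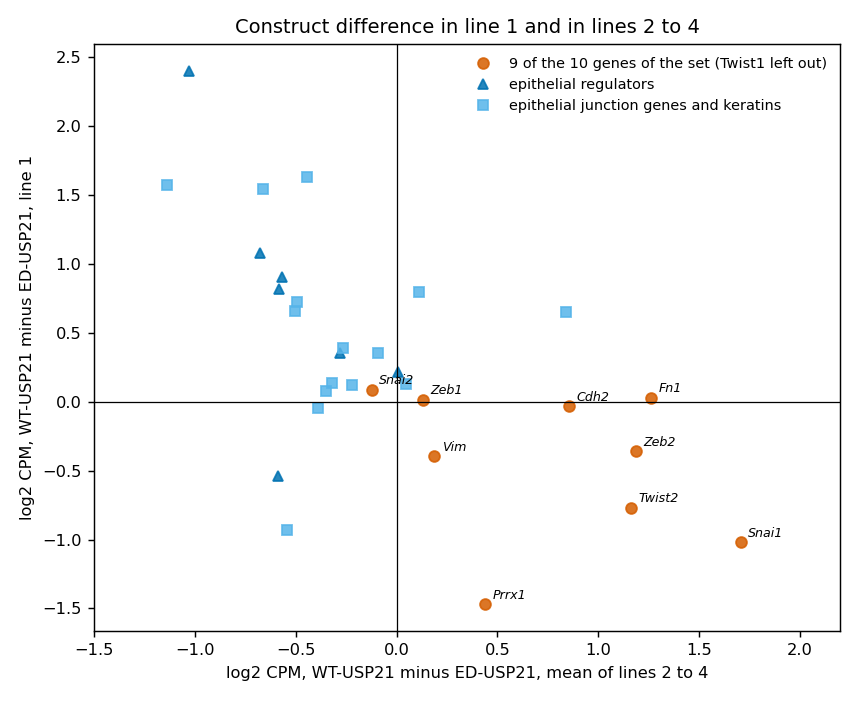
Difference of log2 CPM, WT-USP21 minus ED-USP21, in line 1 (vertical) against its mean over lines 2 to 4 (horizontal), 1 point per gene with a filter on low counts, for 9 genes of the set (Twist1 left out) and the 2 epithelial lists. Of the set, 6 genes lie in the lower right, which held 27.2% of all genes tested, and 5 of 7 epithelial regulators and 10 of 15 junction genes and keratins lie in the upper left, which held 28.5% of all genes tested.

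Of 17 other mesenchymal genes, 2 rose and 1 fell in lines 2 to 4 (median log2 0.41), beside 2.51% and 2.06% of all genes. The collagen gene Col5a1 had 90.0, 87.5 and 98.4 CPM with WT-USP21 against 49.0, 47.2 and 35.7 CPM with ED-USP21 (log2 1.08, SE 0.12, adjusted p = 0.0113). The other gene that rose, Fstl1, was near the floor (log2 5.28, SE 0.97, edgeR adjusted p = 0.0377), with at most 0.371 CPM in any library. It had 13, 15 and 32 reads with WT-USP21 in lines 2, 3 and 4, against 0, 1 and 0 with ED-USP21. The integrin gene Itgb3 fell by 0.86 (SE 0.11, adjusted p = 0.0155). Of 9 ligands, receptors and Smads of TGF-beta signalling, a pathway known to induce EMT, 1 rose, beside 2.51% of all genes, the ligand gene Tgfb3, at 13.7, 13.3 and 20.6 CPM against 3.98, 5.27 and 4.32 CPM (log2 1.79, SE 0.17, adjusted p = 0.00890). Of 8 corepressor genes that work with these factors 1 rose, beside the same 2.51%, Ezh2, a histone methyltransferase (0.45, SE 0.058, adjusted p = 0.0153).

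Markers of other cell types moved with some of these groups, and their part in the results was not tested. With WT-USP21 in line 4 the fibroblast collagen genes Col1a2 and Col3a1 stood at 5.32 and 3.16 CPM, against 0 and 0.0129 CPM with ED-USP21, and the list's summed level was 18.2 against 4.83 CPM. In lines 2 and 3 that sum was 6.93 and 9.18 CPM with WT-USP21 against 5.38 and 7.75 CPM with ED-USP21. Of 6 endothelial markers 2 were tested, and 1 of these, Kdr, rose in lines 2 to 4 (3.90, SE 0.19, edgeR adjusted p = 0.00112), beside 2.51% of all genes. Pecam1 stayed between 0.0399 and 0.146 CPM. The 5 immune markers found summed to 6.16 to 13.1 CPM with WT-USP21 and 5.13 to 16.0 CPM with ED-USP21, with Ptprc at no more than 0.281 CPM. Cd68 made up most of each sum. It had 9.57, 12.7 and 9.75 CPM with WT-USP21 in lines 2, 3 and 4, against 15.3, 15.6 and 12.6 CPM with ED-USP21. In line 1 it had 5.98 CPM with WT-USP21 and 4.87 CPM with ED-USP21. Of 3 immune markers tested in lines 2 to 4, 0 passed. Of the 8 ductal markers 1 fell in lines 2 to 4, Krt19 (-0.58, SE 0.093, edgeR adjusted p = 0.0261), beside 2.06% of all genes. In bulk libraries fewer cells of a type and less RNA per cell cannot be told apart.

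The genes whose centred log2 CPM over the 8 libraries lay nearest to a member's were found by root mean square difference, as a description only. For Zeb2 they were Marcksl1 (0.104), Adam11 (0.156) and Sdc3 (0.187), and for Cdh2 Dyrk3 (0.102), Neto2 (0.110) and the Frizzled receptor gene Fzd2 (0.125). Within the set, Zeb1 and Vim (0.121) and Zeb2 and Cdh2 (0.243) were the nearest pairs, and Twist1 and Twist2 (6.29) the farthest apart.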

How the data were processed

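The authors deposited 1 file of raw gene counts per library, with no normalisation. The submitters' processing notes name HTSeq, STAR, TopHat, Cufflinks and CASAVA and the build mm9, without roles, versions or strand setting. The no-feature row took 11.4% to 20.6% of all counts; it and the other rows that name no gene stayed out of library sizes. A further allele that all libraries share is not reported here. The members and lists were chosen with earlier results of these data known.

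Log2 differences and p-values came from edgeR 4.0.16 (quasi-likelihood, TMM, default low-count filter) in R 4.3.3, adjusted by Benjamini-Hochberg over all genes tested; SE is the absolute log2 difference over the square root of F. CPM uses TMM-scaled totals. DESeq2 1.42.0 and limma 3.58.1 were alternatives. The cell line is the block, since the number in the labels names it. The 2 libraries' deviations from group means correlated across genes at 0.770, 0.503, 0.468 and 0.347 in lines 1 to 4. The group means include line 1, so its departure enters the values of lines 2 to 4 too, and those values are no test of the pairing. Both libraries of a line may share cultures, which the labels do not say, so p-values measure the spread between these lines only. Named genes are the 10 members, up to 4 genes per list with the smallest p in the fits within lines, and the 3 nearest in pattern; further list genes are named where a result turns on them.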

Additional observations from a re-analysis of the deposited data

Results flagged for a closer look

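Of the 20 groups of 4 libraries examined (10 genes, 2 constructs), 9 had 1 library far from the other 3. The groups are drawn from the same 8 libraries, so the rule's nominal rate of about 1 in 20 does not measure chance for this count. The share over all genes was not computed. Both libraries of line 1 lay above all 6 others for 26.1% of all genes and below them for 24%. In 8 of the 9 groups the far library was that of line 1. It was high for Snai2 with WT-USP21 (15.9 CPM, others 4.65 to 6.15) and with ED-USP21 (15.0 CPM, others 5.29 to 6.69). It was high for Twist2 with WT-USP21 (5.42 CPM, others 0.126 to 0.429) and with ED-USP21 (9.25 CPM, others 0.0515 to 0.134). With ED-USP21 it was high for Snai1 (0.376 CPM, others 0.0216 to 0.0668), Prrx1 (4.45 CPM, others 0.270 to 0.454) and Fn1 (724 CPM, others 122 to 165). With WT-USP21 it was low for Vim (2398 CPM, others 3138 to 3240). The remaining one was Zeb1 with ED-USP21 in line 3 (91.3 CPM, others 74.3 to 75.0).

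The construct difference of 4 genes was below 0 in line 1 and above 0 in lines 2, 3 and 4, as for 10.6% of all genes. On the log2 scale, WT-USP21 minus ED-USP21, Zeb2 stood at -0.36 in line 1 and 0.80 to 1.54 in the others. Cdh2 lay near 0 in line 1, at -0.034, against 0.63 to 1.06. For these 2 genes the interaction test passed, but neither passed it without the block or without line 2. Snai1 stood at -1.02 against 0.57 to 2.61 and Twist2 at -0.77 against 0.18 to 2.62, and for these it did not pass (adjusted p = 0.165 and 0.204).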

How the results depend on the processing

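Read depth limits Snai1 most, then Prrx1 and Twist2 outside line 1, and 1 library per line and construct limits all p-values. Over lines 1 to 4 edgeR called 4 genes; it called 58 with no filter on low counts, 0 with a mean of at least 5 CPM, 1 with a robust estimate of the spread and 0 without the block, and DESeq2 called 406. In lines 2 to 4 the 746 calls became 1380 with no filter and 1502 with DESeq2, and for the interaction the 1015 calls became 1666 and 1625. Leaving out 1 line gave 0 to 746 calls in lines 1 to 4 (746 without line 1), 11 to 1701 in lines 2 to 4, 0 to 2112 for the interaction (0 without line 2) and 3387 to 9784 for the level of line 1, where all 8 libraries gave 5731. With library totals alone, the level of line 1 was called higher for 2671 genes and lower for 2912, where TMM gave 3185 and 2546. The causes were not tested.

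Without the replicate block, calls numbered 383 in lines 2 to 4 and 439 for the interaction, and Twist2 turned to -0.63 over lines 1 to 4. Beyond the calls given with the results, the block changed no member's call.

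Signs turned only for differences that had not passed. With 1 line left out, the log2 difference over lines 1 to 4 ran from -0.13 to 0.084 for Snai2, from -0.093 to 1.27 for Twist2, from -0.49 to 0.45 for Prrx1 and from -0.053 to 0.19 for Vim, and that of Snai2 in lines 2 to 4 from -0.25 to 0.094. Prrx1 passed in the interaction without line 3 (adjusted p = 0.0408, edgeR).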
